A study of Caenorhabditis elegans with 4 samples.

Results

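The C-type lectin genes of *Caenorhabditis elegans* were examined in the RNA of whole L1 larvae, the stage at which the worm hatches. They were taken as the rows of the deposited count table whose name is *clec-* followed by a number, which gave 259 of the 19913 genes in the table. The mutant strain *pry-1(mu38)*, which carries a nonsense allele of the Axin gene *pry-1*, was compared with the wild-type strain N2, with 2 libraries of each. Axin is a scaffold of the complex that marks β-catenins such as BAR-1 for destruction. Animals of both strains were grown on standard agar at 20 °C and synchronized by repeated bleaching, whole animals were pooled, and each genotype is a single strain.

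C-type lectin domains are protein folds known from vertebrate proteins that bind sugars with the help of calcium. The worm has one of its largest gene families in this class, most of whose products are predicted to be secreted or membrane proteins of unknown ligand. Many members are known to change expression on contact with bacterial pathogens, often in the intestine, and groups of them lie side by side on the chromosomes. In adult worms infected with *Staphylococcus aureus*, the induction of *clec-60* is known to need *bar-1* and the homeobox gene *egl-5*, so the family has a known link to the pathway that Axin restrains.

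The counts on genes ranged from 27741375 to 33230854 per library. Levels are given as CPM, counts scaled to a library total of 1000000 after adjusting the library sizes by the TMM method. Among the tested members the replicates of a strain were unequally close. The *pry-1(mu38)* libraries were at least 2-fold apart in 17 of 113 members (15.04%, against 4.63% of all genes tested), and the N2 libraries in 44 (38.9%, against 17.9%). Even among the 55 members with a mean of at least 100 counts, the N2 libraries were at least 2-fold apart in 17 (30.9%, against 12.5% of all genes with such counts). N2 replicate 2 was the highest of the 4 libraries in 50 tested members and the lowest in 38. Values without that library are given beside many of the results that it moved. Markers of cell types were summed for each library. In *pry-1(mu38)* replicates 1 and 2 the pharynx markers summed to 148 and 277 CPM, against 417 and 1131 CPM in N2 replicates 1 and 2. Of the 5 pharynx markers tested, 3 were lower in both mutant libraries and *pha-4* and *ceh-22* overlapped between strains, and *myo-2* made up most of the sum in N2. Yolk genes, which are markers of adults, summed to 286 and 283 CPM in *pry-1(mu38)* and 3.99 and 14.2 CPM in N2, with all 6 genes higher in both mutant libraries. The study itself reports raised yolk genes in *pry-1* mutants at this larval stage, from the sequencing of these same libraries and from qPCR. Whether adults contributed to the sum of the yolk genes was not tested. Intestinal markers summed to 6402 and 5775 CPM in *pry-1(mu38)* and 5097 and 3993 CPM in N2, with 3 of 7 genes higher and 2 lower in both mutant libraries. Most of each sum came from *asp-1*, at 4708 and 4158 CPM in *pry-1(mu38)* and 3406 and 2136 CPM in N2. Body wall muscle markers summed to 12860 and 13040 CPM in *pry-1(mu38)* and 13520 and 24240 CPM in N2. The sums of germ line, hypodermis and neuron markers were also highest in N2 replicate 2, at 33.97, 1261 and 1972 CPM. In the other libraries these sums were at most 20.6, 1092 and 1813 CPM. Sperm markers summed to at most 1.60 CPM in any library. The part of these differences in the lectin values was not tested, and in RNA of whole animals fewer cells of a type and less RNA per cell cannot be told apart.

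The family was expressed very unequally at this stage. No count was found in any library for 26 members, which allows a level of up to 0.110 CPM in the shallowest library, and 120 further members had counts but did not pass the filter on low counts, with a median of 8.5 counts over all libraries together. The other 113 were tested. By mean level, 32 members had at least 10 CPM, 49 had from 1 to 10 CPM and 152 had counts but less than 1 CPM. The family as a whole took 2157 and 2058 CPM in *pry-1(mu38)* replicates 1 and 2, against 1836 and 1738 CPM in N2 replicates 1 and 2. The 3 most abundant members, *clec-63*, *clec-1* and *clec-50*, made up 44.2% of the mean of these sums, and the first 12 made up 67.3%. When these 3 genes were set aside, the rest summed to 1055 and 1047 CPM in *pry-1(mu38)* and to 1015 and 1230 CPM in N2, and the strains no longer stood apart.

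The gene with the highest level was *clec-63*, at 566 and 547 CPM in *pry-1(mu38)* replicates 1 and 2, against 445 and 351 CPM in N2 replicates 1 and 2. Both mutant libraries lay above both N2 libraries, with a log2 fold change of 0.48 (standard error 0.19), which was 0.32 without N2 replicate 2. Next came *clec-1*, at 328 and 269 CPM in *pry-1(mu38)* and 192 and 51.1 CPM in N2. Its N2 libraries were much farther apart than its mutant libraries, and its log2 fold change of 1.30 (standard error 0.63) became 0.63 when N2 replicate 2 was left out and 2.55 when N2 replicate 1 was. The level of *clec-50* was 208 and 195 CPM in *pry-1(mu38)* against 184 and 107 CPM in N2, a log2 fold change of 0.47 (standard error 0.29), which was 0.13 without N2 replicate 2. Divided by the length of the exons, the mean level over all libraries was 368 CPM per kilobase for *clec-63*, 273 for *clec-1* and 165 for *clec-50*. These were the first 3 places on that scale too, and they were followed by *clec-84* at 63.3, *clec-52* at 62.9 and *clec-173* at 55.1 CPM per kilobase.

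**Figure D1:**
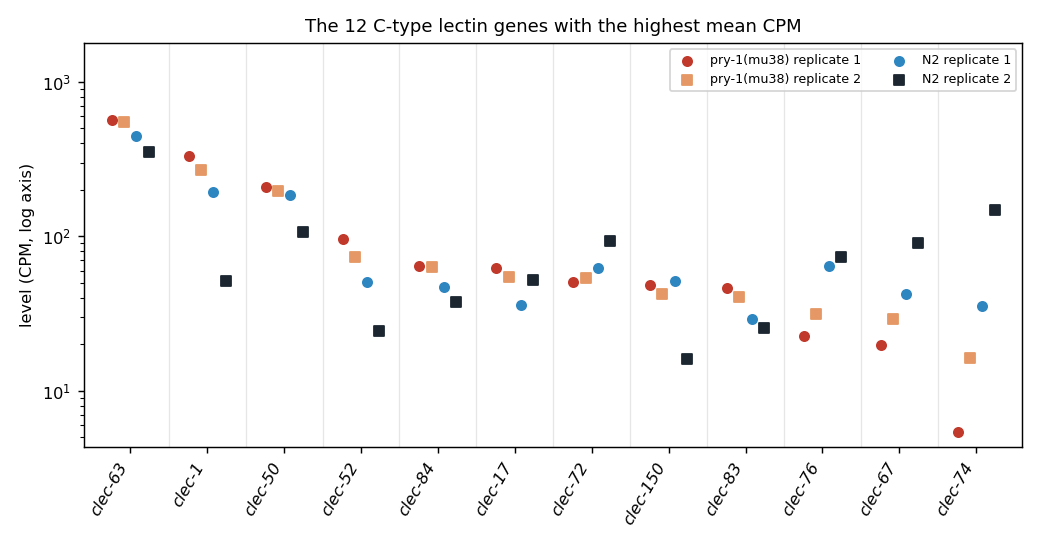
Level of the 12 C-type lectin genes with the highest mean CPM, on a log axis, with 1 point for each *pry-1(mu38)* library (red and orange) and each N2 library (blue and black). *clec-63*, *clec-1* and *clec-50* have the highest means, although in N2 replicate 2 *clec-74* lies above *clec-1* and *clec-50*, while *clec-72*, *clec-76*, *clec-67* and *clec-74* are lower in both mutant libraries, and N2 replicate 2 is often the point farthest from the others.

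Among the other abundant members, *clec-52* stood at 96.7 and 73.4 CPM in *pry-1(mu38)*, against 50.6 and 24.3 CPM in N2, a log2 fold change of 1.18 (standard error 0.39). The strains did not overlap, and the value was 0.74 without N2 replicate 2. *clec-17* was at 62.5 and 54.5 CPM in *pry-1(mu38)* and at 35.9 and 52 CPM in N2, where the mutant replicate 2 and N2 replicate 2 were close together. In *clec-150* the strains overlapped, with 48.3 and 42.1 CPM in *pry-1(mu38)* and 51.7 and 16.04 CPM in N2, and its log2 fold change was 0.42 with all libraries and -0.20 without N2 replicate 2. Of the first 12 genes, 7 were higher in both mutant libraries (background 29.1% of all genes tested), 4 were lower in both (background 28.0%) and 1 overlapped. The lower ones were *clec-67*, *clec-72*, *clec-74* and *clec-76*, which belong to a single row of neighbouring genes described further on.

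Over all 113 tested members, the log2 fold change between the mutant and N2 ranged from -3.25 to 2.93. The quartiles were -0.88 and 0.63, wider than the -0.50 and 0.28 of all genes tested. The median was -0.19, against -0.022 for all genes tested, and 51 values were positive, where 48.4% of all genes tested were, and 62 negative. The median turned to 0.13 without N2 replicate 2, so its sign depended on that library. Both mutant libraries lay above both N2 libraries in 38 members, where 29.1% of all genes tested did so, and below in 31, where 28.0% did. Together these are 69 members, or 61.1%, near the background of 57.0% of all genes tested. A fitted change of 2-fold or more was found in 37 members. Of these, 16 were on the higher side, where 3.70% of all genes tested lay, and 21 on the lower, where 12.3% did. In 33 members the sign of the log2 fold change turned when 1 library or another was left out.

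**Figure D2:**
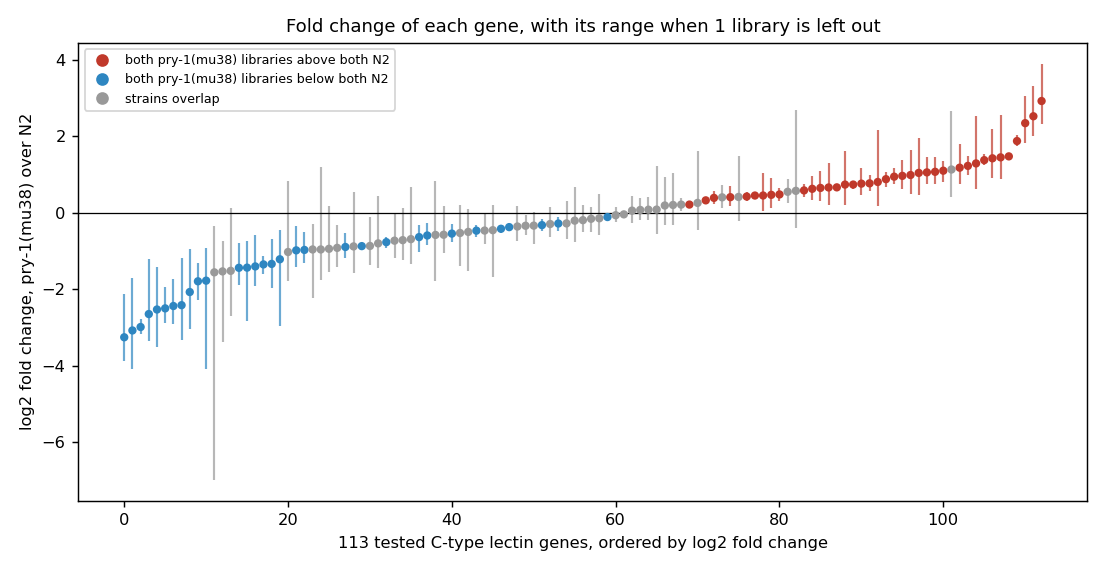
Log2 fold change of *pry-1(mu38)* over N2 for each of the 113 tested C-type lectin genes, ordered by value, with a line from the lowest to the highest value when 1 library is left out in turn. Red points have both mutant libraries above both N2 libraries, blue points have both below, and in the grey points, whose lines often cross 0, the strains overlap.

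With Benjamini-Hochberg adjustment over all genes, edgeR's quasi-likelihood test gave no call in the family, since no member had an adjusted p under 0.05. The background in this test was 0.00662% of genes called lower and 0.00% called higher. The smallest adjusted p among the members was 0.289, shared by *clec-48* and *clec-169*. At an unadjusted p under 0.05 there were 15 members higher in *pry-1(mu38)*, with a background of 5.93%, and 15 lower, with a background of 8.23%. DESeq2 called 12 members, namely 3 higher (background 1.19%) and 9 lower (background 2.03%). edgeR's exact test called 10, 4 higher and 6 lower (background 0.967% in each direction). DESeq2, DESeq2 after quantile normalization and the exact test had 8 members in common, *clec-48*, *clec-61* and *clec-82* on the higher side and *clec-47*, *clec-73*, *clec-74*, *clec-76* and *clec-169* on the lower. The share of all genes called by all of these tests was not counted. The 8 members therefore have no background and are not read as a property of the family. A value beyond 2-fold that held with each library left out in turn was found in 6 members on the higher side (background 1.83%) and in 10 on the lower (background 2.69%). For groups of 2, the smallest two-sided p of an exact permutation test is 0.333, so the p-values above rest on the spread estimated across genes.

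On the higher side, *clec-82* had the largest log2 fold change, 2.93 (standard error 0.55). It had 59.3 and 52.4 CPM in *pry-1(mu38)* replicates 1 and 2, against 11.01 and 3.71 CPM in N2 replicates 1 and 2. The mutant libraries were close to each other and the strains were well apart. DESeq2 gave it an adjusted p of 5.45e-06 and the exact test 0.000246, and the log2 fold change lay between 2.34 and 3.91 when libraries were left out in turn. *clec-48* was even within each strain, with 34.6 and 33.2 CPM in *pry-1(mu38)* and 12.5 and 11.8 CPM in N2. Its log2 fold change was 1.48 (standard error 0.18; adjusted p = 4.54e-06 in DESeq2) and stayed from 1.44 to 1.52. *clec-61*, a neighbour of *clec-60* on chromosome II, had 4.93 and 5.36 CPM in *pry-1(mu38)*, against 1.28 and 0.513 CPM in N2, which gave 2.53 on the log2 scale (standard error 0.51, DESeq2 adjusted p = 0.00189). Here the N2 libraries rest on 35 and 17 counts, and the value was 2.0 without N2 replicate 2 and 3.32 without the other N2 library.

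The other members that led on this side had smaller changes or fewer counts. *clec-173* had 45.6 and 39.3 CPM in *pry-1(mu38)*, against 25.2 and 15.5 CPM in N2 (log2 fold change 1.06, standard error 0.29). *clec-49*, which is known to contribute to resistance against *Serratia marcescens*, had 14.8 and 12.7 CPM in *pry-1(mu38)* and 8.08 and 4.98 CPM in N2 (log2 fold change 1.08, standard error 0.31). *clec-225* had 6.52 and 9.57 CPM in *pry-1(mu38)* and 4.10 and 3.38 CPM in N2 (log2 fold change 1.10, standard error 0.32). None of these 3 was called by DESeq2, and without N2 replicate 2 the values were 0.75, 0.76 and 0.97. The list by size also held *clec-184*, *clec-102*, *clec-126* and *clec-243*. Of these *clec-184*, at 49 and 49 counts in *pry-1(mu38)* and 10 and 15 counts in N2, was called by the exact test (adjusted p = 0.0295), while *clec-102* had 17 and 17 counts in *pry-1(mu38)* and 4 and 2 counts in N2. *clec-126* had 104 and 92 counts in *pry-1(mu38)* and 44 and 22 counts in N2, and *clec-243* had 54 and 50 counts in *pry-1(mu38)* and 22 and 19 counts in N2. DESeq2 gave *clec-184* and *clec-102* no adjusted p.

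On the lower side, *clec-169* was the member with the smallest adjusted p in DESeq2, 1.66e-11. It had 1.83 and 1.43 CPM in *pry-1(mu38)* replicates 1 and 2, against 11.2 and 14.6 CPM in N2 replicates 1 and 2. Both strains were even within themselves, and the log2 fold change of -2.98 (standard error 0.31) stayed from -3.17 to -2.78. Together with *clec-82* it was called by the quasi-likelihood test in each of the 4 fits with a library left out. The most negative fitted value was that of *clec-47*, at 0.310 and 0.530 CPM in *pry-1(mu38)* and 1.83 and 6.22 CPM in N2, and its log2 fold change was -3.25 (standard error 0.75, DESeq2 adjusted p = 0.00359). It is one of the members known to respond to bacterial infection. Its mutant libraries held 10 and 17 counts, its N2 libraries differed from each other by 3.40-fold, and the value was -2.12 without N2 replicate 2.

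Of the 3 members on chromosome X, 2 were on this side (background 28.0% of all genes tested), and in the other, *clec-86*, the strains overlapped. *clec-266* had 1.58 and 1.96 CPM in *pry-1(mu38)*, against 4.06 and 18.1 CPM in N2, or -2.64 on the log2 scale (standard error 0.77, DESeq2 adjusted p = 0.0104), and -1.20 without N2 replicate 2. *clec-265* had 9.96 and 10.2 CPM in *pry-1(mu38)* and 18.7 and 18.1 CPM in N2. Its change was smaller but even, at -0.87 on the log2 scale (standard error 0.19, DESeq2 adjusted p = 0.0448), and stayed from -0.90 to -0.84. The lower side further held *clec-9*, *clec-145*, *clec-155* and *clec-202*, which had at most 29 counts in any *pry-1(mu38)* library and from 9 to 147 counts in the N2 libraries. The exact test called none of them, and DESeq2 neither *clec-9* nor *clec-155*, while it gave the others no adjusted p. *clec-155* is listed as a pseudogene in the RefSeq annotation of build WBcel235.

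The position of the members on the chromosomes was then compared with their values. RefSeq holds 257 of the 259 names, 239 as protein-coding genes and 18 as pseudogenes. Chromosome V has 92 of them, IV has 57, II has 51, I has 36, III has 18 and X has 3. Runs of at least 3 members with at most 2 other genes between neighbours were called arrays, and 22 such arrays held 112 members. In 9 of the arrays no member was tested. An array of 13 members on chromosome V that begins with *clec-40* and *clec-25* had 1 tested member and no more than 79 counts for any member over all libraries. An array of 7 members on chromosome I, *clec-93* to *clec-99*, and an array of 8 on chromosome II, *clec-127* to *clec-134*, had at most 25 and 3 counts for a member. Large parts of the family were therefore at or near the limit of detection in L1 larvae of both strains.

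In the arrays with at least 4 tested members, those that went one way throughout lay on chromosome IV. They were singled out after their values were seen, so the counts describe them and no test was made. The array of *clec-82*, *clec-83*, *clec-84* and *clec-85* had 4 tested members, all of them with both *pry-1(mu38)* libraries above both N2 libraries (background 29.1% of genes). Summed over the array, the level was 182 and 166 CPM in *pry-1(mu38)* replicates 1 and 2, against 96.6 and 71.2 CPM in N2 replicates 1 and 2. Beyond *clec-82*, the differences were modest. *clec-83* had 46.4 and 40.5 CPM in *pry-1(mu38)* and 29.01 and 25.6 CPM in N2. *clec-84* had 64.6 and 62.96 CPM in *pry-1(mu38)* and 47.2 and 37.6 CPM in N2. *clec-85*, whose expression is known to depend on the p38 kinase PMK-1, had 11.9 and 9.73 CPM in *pry-1(mu38)* and 9.33 and 4.35 CPM in N2, where mutant replicate 2 and N2 replicate 1 were nearly level, and its log2 fold change of 0.67 was 0.21 without N2 replicate 2. The median log2 fold change of the array was 0.67, and 0.50 without N2 replicate 2. Only *clec-82* of these genes was called by DESeq2.

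Farther along chromosome IV, with 202 genes between *clec-85* and *clec-67*, an array of 13 members ran from *clec-67* to *clec-79* and took in *clec-174*. All 10 of its tested members had a negative log2 fold change, from -3.07 to -0.037, and 8 were lower in both mutant libraries than in either N2 library (background 28.0%). The sum over the array was 107 and 142 CPM in *pry-1(mu38)* replicates 1 and 2, against 224 and 449 CPM in N2 replicates 1 and 2. *clec-74* had 5.46 and 16.4 CPM in *pry-1(mu38)*, against 35.4 and 148 CPM in N2. The replicates of each strain were thus farther apart, as a ratio, than the nearest libraries of the strains. Its log2 fold change was -3.07 (standard error 0.89; adjusted p = 0.00193 in DESeq2), and -1.70 without N2 replicate 2. *clec-76* was steadier, at 22.7 and 31.5 CPM in *pry-1(mu38)* and 64.5 and 73.4 CPM in N2, or -1.35 on the log2 scale (standard error 0.23, DESeq2 adjusted p = 0.000959), and it stayed from -1.60 to -1.13.

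The remaining genes of this array had the same direction at different levels. *clec-67*, another gene known to depend on PMK-1, had 19.9 and 29.2 CPM in *pry-1(mu38)* and 42.5 and 90.3 CPM in N2 (log2 fold change -1.44, standard error 0.42; adjusted p = 0.0426 in DESeq2). Its value was -0.79 without N2 replicate 2, and the exact test did not call it (adjusted p = 0.0870). *clec-72* had 50.7 and 53.4 CPM in *pry-1(mu38)* and 62.8 and 93.8 CPM in N2, and its log2 fold change of -0.59 was -0.28 without N2 replicate 2. *clec-174* had 1.09 and 3.18 CPM in *pry-1(mu38)* and 5.63 and 18.9 CPM in N2 (adjusted p = 0.0207 in DESeq2), and its log2 fold change of -2.53 was -1.40 without N2 replicate 2. In these genes N2 replicate 2 was well above N2 replicate 1. *clec-73* had 0.869 and 1.25 CPM in *pry-1(mu38)* and 3.51 and 7.94 CPM in N2 (adjusted p = 0.00407 in DESeq2), and its log2 fold change of -2.43 was -1.73 without N2 replicate 2. *clec-75*, named here as a neighbour, had 5.37 and 6.08 CPM in *pry-1(mu38)* and 8.12 and 14.3 CPM in N2. The pseudogene *clec-77* had only 5 and 4 counts in *pry-1(mu38)* and 15 and 35 counts in N2. *clec-70* and *clec-71*, at 15 counts or fewer in every library, were the members in which the strains overlapped.

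**Figure D3:**
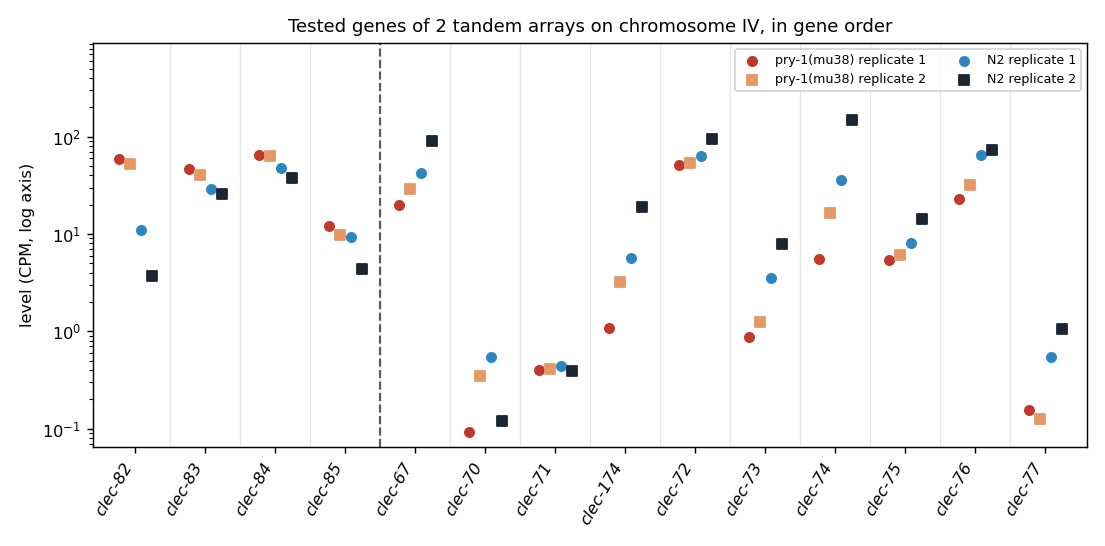
Level in CPM, on a log axis, of the tested members of 2 arrays of neighbouring C-type lectin genes on chromosome IV, in gene order, with 1 point per library. Left of the dashed line, all 4 genes from *clec-82* to *clec-85* have both *pry-1(mu38)* libraries above both N2 libraries, and right of it 8 of the 10 genes from *clec-67* to *clec-77* have both below.

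In 7 of the 10 tested genes of the *clec-67* array the libraries stood in one order, with *pry-1(mu38)* replicate 1 lowest, then *pry-1(mu38)* replicate 2, N2 replicate 1 and N2 replicate 2. Of all tested members 18 (15.9%) had this order and 17 (15.04%) its reverse, against 17.2% and 18.3% of all genes tested. Only genes with both mutant libraries below both N2 libraries can have this order, and 58.1% of the tested members on that side had it. The array was singled out for that side, so its 7 genes are no separate result. Of the 5 pharynx markers, 3 had this order as well. The myosin gene *myo-2* was among them, with 51.3 and 144 CPM in *pry-1(mu38)* and 259 and 746 CPM in N2, and so did the pharyngeal troponin gene *tnt-4*, with 8.26 and 21.7 CPM in *pry-1(mu38)* and 32.6 and 101 CPM in N2. *ceh-22* did not have this order, and *pha-4*, the factor that specifies the pharynx, was near level, at 51.2 and 48.1 CPM in *pry-1(mu38)* and 50.2 and 55.9 CPM in N2. Whether the same difference between libraries underlies the lectin genes and these markers was not tested. Without N2 replicate 2, the median log2 fold change of the array was -1.29, against -1.39 with all libraries. Reads that aligned at several places, from 8.04% to 8.57% of the *pry-1(mu38)* libraries and from 9.41% to 11.6% of the N2 libraries, were counted for no gene, so levels of members with a near-identical copy are uncertain.

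Of the other arrays with at least 4 tested members, that of *clec-169* also had a single sign, and the rest were mixed. *clec-169* belongs to an array of 6 members on chromosome IV, of which all 4 tested members had a negative log2 fold change, where 48.4% of all genes had a positive one, and 2 had both mutant libraries below both N2 libraries (background 28.0%). The array of *clec-62* to *clec-66* on chromosome II holds the most abundant gene of the family. There *clec-63* was the single gene with a positive value, and 3 of the other 4 were lower in both mutant libraries (background 28.0%). Of these, *clec-66* had 9.50 and 10.9 CPM in *pry-1(mu38)*, against 14.5 and 23.2 CPM in N2 (log2 fold change -0.89, standard error 0.30, and -0.52 without N2 replicate 2), and *clec-65* was nearly level, at 31.7 and 29.6 CPM in *pry-1(mu38)* and 31.9 and 34.2 CPM in N2. In an array of 5 on chromosome V, *clec-54* and *clec-55* were higher in both mutant libraries while *clec-57* and *clec-227* were lower. The array of *clec-197* to *clec-202* on chromosome IV, with 5 tested members, had a median log2 fold change of -0.94 that was 0.36 without N2 replicate 2.

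A list of 20 members known for their response to infection was written from general knowledge. Of these, 19 were tested and *clec-39*, which is also known from *Serratia* resistance, had no count in any library. Both *pry-1(mu38)* libraries were above both N2 libraries in 7 genes, below in 5, and the strains overlapped in 7, beside 29.1% above and 28.0% below among all genes tested. The median log2 fold change was 0.19. DESeq2 called 1 of them higher, *clec-82* (background 1.19%), and 2 lower, *clec-47* and *clec-67* (background 2.03%). The list thus held members on both sides.

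**Figure D4:**
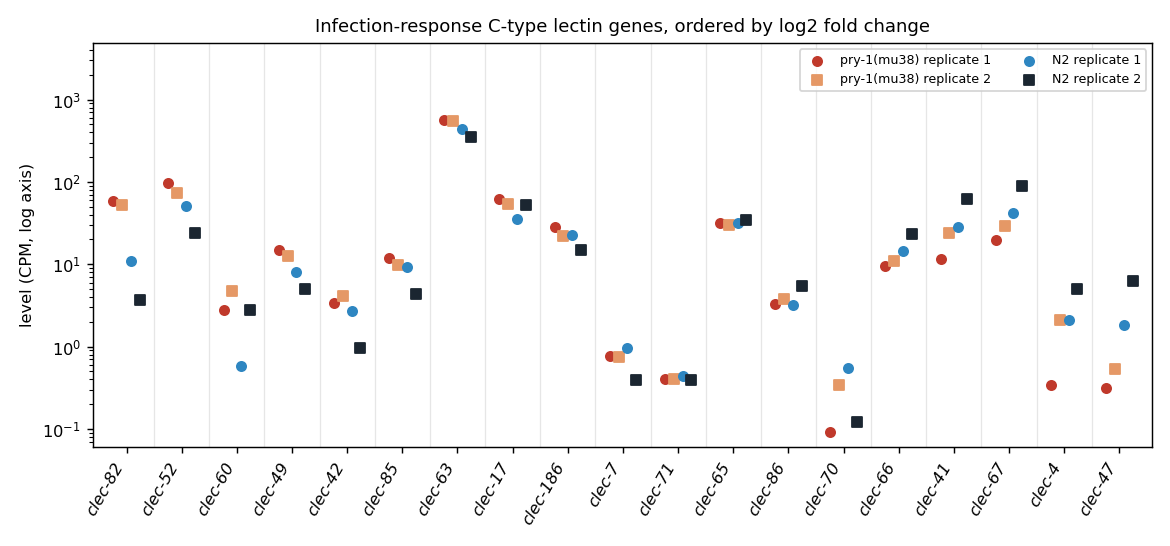
Level in CPM, on a log axis, of the 19 tested members of the infection-response list, ordered by log2 fold change from the most positive to the most negative, with 1 point per library. *clec-82*, at the left end, has both *pry-1(mu38)* libraries far above N2, *clec-47*, at the right end, has both below, and in 7 of the 19 genes the strains overlap.

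The gene with a known link to β-catenin, *clec-60*, was low and uneven. It had 2.79 and 4.74 CPM in *pry-1(mu38)* replicates 1 and 2, against 0.585 and 2.81 CPM in N2 replicates 1 and 2, from 90 and 152 counts and from 16 and 93 counts. N2 replicate 2 and mutant replicate 1 were at the same level, so the strains overlapped. The log2 fold change was 1.14 (standard error 0.77, adjusted p = 0.456 in edgeR's quasi-likelihood test), and leaving out N2 replicate 1 gave 0.42, while leaving out N2 replicate 2 gave 2.67. The RNA of its known regulators was nearer to level. *bar-1* had 32.4 and 33.5 CPM in *pry-1(mu38)* and 33.6 and 33.9 CPM in N2 (log2 fold change -0.035, standard error 0.16), and *egl-5* had 63.3 and 54.5 CPM in *pry-1(mu38)* and 54.8 and 38.8 CPM in N2 (log2 fold change 0.33, standard error 0.23). The strains thus overlapped in *egl-5*. By qRT-PCR at the same stage, the study reports a significant rise of *egl-5* in *pry-1* mutants. Levels of RNA give no measure of the BAR-1 protein, on which Axin acts.

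Among the members that contribute to defence against *Bacillus thuringiensis*, *clec-41* had 11.6 and 24.2 CPM in *pry-1(mu38)* and 28.6 and 61.6 CPM in N2 (log2 fold change -1.33, standard error 0.52), which became -0.68 when N2 replicate 2 was left out and -1.96 when *pry-1(mu38)* replicate 2 was. *clec-42* had 3.38 and 4.18 CPM in *pry-1(mu38)* and 2.71 and 0.966 CPM in N2 (log2 fold change 1.05, standard error 0.56), which became 0.48 when N2 replicate 2 was left out and 1.96 when N2 replicate 1 was. In *clec-4* the strains overlapped, at 0.341 and 2.12 CPM in *pry-1(mu38)* and 2.09 and 5.01 CPM in N2, and its log2 fold change ran from -3.37 to -0.75 as libraries were left out. These 3 genes thus gave values of both signs, and none was called by the quasi-likelihood test or by DESeq2. Further genes of the list overlapped between strains. *clec-186* had 28.1 and 22.3 CPM in *pry-1(mu38)* and 22.9 and 15.1 CPM in N2, and *clec-86* had 3.29 and 3.77 CPM in *pry-1(mu38)* and 3.18 and 5.44 CPM in N2. *clec-7* stayed below 1 CPM in every library.

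Regulators of innate immunity were listed for comparison. Of 30 genes listed, 27 were tested. Both *pry-1(mu38)* libraries were above both N2 libraries in 4 (background 29.1%) and below in 11 (background 28.0%), at a median log2 fold change of -0.13. edgeR's quasi-likelihood test called none, with 1 gene at an unadjusted p under 0.05 (background 14.2%). That gene was *tir-1*, the adaptor at the head of the p38 pathway, with 233 and 294 CPM in *pry-1(mu38)* and 446 and 611 CPM in N2 (log2 fold change -1.01, standard error 0.24; adjusted p = 0.0313 in DESeq2). The p38 kinase gene *pmk-1* differed less, at 61.0 and 63.7 CPM in *pry-1(mu38)* and 72.6 and 69.1 CPM in N2 (log2 fold change -0.18, standard error 0.15). The intestinal GATA factor *elt-2* was at 14.7 and 12.6 CPM in *pry-1(mu38)* and 15.4 and 14.4 CPM in N2. The galectins, a separate family of sugar-binding proteins, had both mutant libraries above both N2 libraries in 1 and below in 5 of 11 tested genes, with the same backgrounds, at a median log2 fold change of -0.34. In 4 of the 11 the unadjusted p of the quasi-likelihood test was under 0.05, where 14.2% of all genes tested had such a p. DESeq2 called 2 of the 11, both lower, *lec-7* and *lec-11* (background 2.03%). *lec-7* had 6.27 and 9.07 CPM in *pry-1(mu38)* against 16.9 and 31.7 CPM in N2.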

How the data were processed

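RNA of synchronized whole L1 larvae had been sequenced by the authors as paired-end libraries, 2 of *pry-1(mu38)* and 2 of N2. The deposited table holds whole-number read counts per gene without normalization. The study describes trimming, mapping with Bowtie to build ce6 (BWA in the series description), eXpress, quantile normalization and DESeq. The table ends in the summary lines of a read counter, which were removed (5.32% to 6.75% of reads outside genes). The strand setting and the annotation are not given in the sources used here, so overlapping and antisense genes cannot be told apart.

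The counts were analysed with edgeR 4.0.16 in R 4.3.3. filterByExpr with a minimum count of 10 kept 15101 genes, library sizes were scaled by TMM, and p-values of the quasi-likelihood fit were adjusted after Benjamini and Hochberg over all of them (threshold 0.05). The standard error is the log2 fold change divided by the root of the F statistic. The methods were tested on simulated data. A pseudocount of 0.1 CPM was used between single libraries. Gene order, chromosome and gene type came from RefSeq, and exon lengths from the Ensembl annotation, both of build WBcel235. Exon lengths were found for 237 members. Coordinates were left out, since the reads had been mapped to a different build. Named genes were the 12 most abundant members, 12 in each direction with the largest changes (mean count 10 or more, no overlap between strains), those called by DESeq2, and the infection-response list. Others were named after their values were seen. The members and lists were chosen with earlier results of these data known. Alternatives were DESeq2 1.42.0, quantile normalization followed by DESeq2, the exact test, no TMM, other filters, a replicate block, a test beyond 2-fold and each library left out. The study calls the libraries biological replicates. Sequences were not analysed here.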

Additional observations from a re-analysis of the deposited data

How the results depend on the processing

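The number of genes called depended on the test. Over all genes, the quasi-likelihood test called 1 (0 without a filter on low counts), DESeq2 486, DESeq2 after quantile normalization 508 and the exact test 292. Among the C-type lectin genes the numbers were 0, 12, 13 and 10, the last 3 split into 3, 5 and 4 higher and 9, 8 and 6 lower. The titles give the same replicate numbers to both strains, but nothing says that equal numbers share a culture. With a replicate block the quasi-likelihood test called 2327 genes and 34 C-type lectin genes, 14 of them higher, and 54 had an unadjusted p under 0.05, against 30 without it, while among all genes tested 27.9% had such a p with the block and 14.2% without it. The deviations of same-numbered libraries had a correlation of 0.485 across genes. Leaving out libraries one at a time, from 80 to 5869 genes and from 3 to 50 C-type lectin genes were called, the highest numbers without N2 replicate 1 and the lowest 80 without *pry-1(mu38)* replicate 1. In the same fits, 16 to 65 C-type lectin genes had an unadjusted p under 0.05 and 74 to 106 did not overlap between strains, against 69 with all libraries, because fewer libraries are compared. Without a filter 115 of 233 members did not overlap. No share of all genes without overlap is given for the fits with a library left out or without a filter. These counts of members therefore have no background and are not read as a property of the family. Without N2 replicate 1, the genes with an unadjusted p under 0.05 became more numerous among all genes tested as well. The median log2 fold change of the family was -0.19 with all libraries, from -0.21 to 0.13 with each left out, and 1.05e-06 after quantile normalization. No scaling moved the median of all genes by more than 0.1.

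Of 494 values of named genes under the alternatives, 487 kept their sign. The exceptions were *clec-70* (from -1.77 to 0.83 with each library left out), *clec-71* (from -0.12 to 0.042, and 0.11 after quantile normalization), *clec-150* (from -0.20 to 1.49), *clec-86* (from -0.62 to 0.15) and *clec-7* (from -0.32 to 0.95). In these fits a lone library is assumed to vary like the others. The cause of these differences was not tested.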
